A study of Mus musculus with 56 samples.

Results

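The forestomach arrays of mice given chrysene by gavage were compared by how much glandular stomach signal they held. All 19 forestomach arrays were ranked by a glandular score, the mean log2 ratio in the authors' table of 4 genes of glandular stomach: Atp4b, Cblif, Gkn2 and Pgc. The 6 highest arrays (high arrays) were then set against the 6 lowest (low arrays), whatever their dose, so that 12 of the 19 forestomach arrays and of the 56 arrays of the series entered the comparison. The arrays were selected on these measured values. The differences in forestomach between high and low arrays are therefore a description without a test, and tests of differences were kept to the dose labels and to the liver and lung of the same mice.

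The animals were adult male MutaTMMouse, a transgenic strain that carries a bacterial reporter gene for scoring mutations, aged 14 weeks. Mice were gavaged on each of 28 days with the vehicle olive oil (D0) or with the polycyclic aromatic hydrocarbon chrysene dissolved in it. The daily dose per kg of body weight was 17.5 mg in D1, 50 mg in D2 and 150 mg in D3. Tissue was taken 72 hours after the last dose, and RNA came from random sections of each organ, 1 array per mouse and tissue. Each array held the sample in Cy5 and a universal reference RNA from mouse cell lines in Cy3, with no dye swap, so the level of a gene is given as its log2 ratio of sample over reference. The high arrays were D2 mouse 12, D0 mice 2 and 3, D3 mouse 19 and D1 mice 10 and 8. The low arrays were D1 mice 6, 9 and 7, D0 mice 1 and 4 and D3 mouse 16. The arrays between them were D2 mice 13, 11 and 15, D0 mouse 5 and D3 mice 18, 20 and 17.

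The mouse stomach has 2 linings. The forestomach is covered by a stratified squamous epithelium that cornifies much as skin does, with basal cells that carry Krt5 and Krt14 and upper layers that make envelope proteins such as loricrin and the small proline-rich proteins. The glandular stomach, which meets it at the limiting ridge, has a simple columnar epithelium with acid-secreting parietal cells, pepsinogen-secreting chief cells, mucous pit and neck cells, and scattered endocrine cells. In bulk RNA, fewer cells of a type and less RNA per cell cannot be told apart.

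The score fell into 2 ranges with a gap between them. It was 7.26 ± 0.41 (SD, n = 6) in the high arrays, from 6.63 to 7.68, and 0.66 ± 0.43 (SD, n = 6) in the low arrays, from 0.06 to 1.12. At the limits of the rule, the last high array had 6.63 and the next one outside 6.62, while the first low array had 1.12 and the next one outside 1.54. The widest gap between neighbours, 3.8, lay between 6.49 (D2 mouse 15) and 2.69 (D3 mouse 18). It left 10 arrays above and 9 below, so 4 of the 7 arrays in between had scores almost as high as the high arrays and 3 had scores nearer the low ones. The lower limit of the high arrays thus separates mice with nearly equal scores, and the upper limit of the low arrays is likewise narrow.

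**Figure D1:**
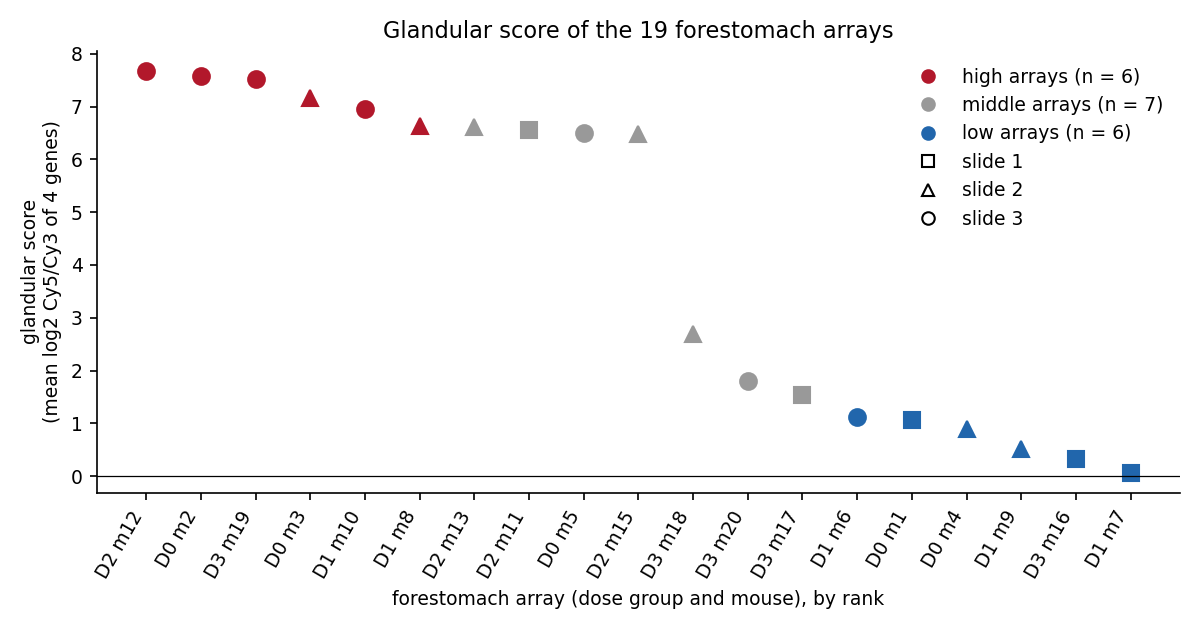
Glandular score (mean log2 Cy5/Cy3 of Atp4b, Cblif, Gkn2 and Pgc in the authors' table) of each of the 19 forestomach arrays, by rank. Red marks the 6 high, blue the 6 low and grey the 7 arrays between, and the symbol gives the slide. No array lies between 2.69 and 6.49.

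The 4 genes of the rule covered a wide range in the authors' table, from which the ratios of this paragraph come. Atp4b, the beta subunit of the gastric proton pump, had ratios of 6.54, 6.86 and 7.28 (lowest, median and highest) in the high arrays and -0.20, 0.05 and 0.31 in the low arrays, where 0 of 6 arrays had a Cy5 signal well above background. Cblif, the gastric intrinsic factor that binds vitamin B12, had 8.17, 8.76 and 9.49 against -0.25, 0.16 and 1.09. Pgc, the zymogen progastricsin, had 4.35, 5.05 and 5.73 against -0.17, 0.14 and 1.17. Cblif and Pgc were well above background on 1 of the 6 low arrays, D1 mouse 6. Gkn2, a gastrokine secreted by mucous pit cells, had 7.46, 8.35 and 8.97 against 0.52, 2.10 and 3.66 and was well above background on 5 of the 6 low arrays. A trace of this gene was therefore measured even in mice without a measured level of the pump subunit. In the liver none of the 4 genes was well above background on any of 19 arrays, and in the lung they were on 0 to 2 of 18 arrays.

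The sequence before the transcription start is shown for some genes of the gastric unit that stood high together, and for Krt5 of the squamous basal layer. The factors Gata4, Gata6 and Foxa2 were themselves among the genes that differed in the comparison. No rule chose the genes shown, so how many of them hold a motif is not a result, and shares over whole lists are given below. The windows are the 150 bases upstream of the start, from RefSeq on GRCm38.p6, read 5′ to 3′ on the strand of the gene. Capitals mark a GATA motif, searched as AGATAA and AGATAG, and as TGATAA and TGATAG, on both strands. Gkn1 lies at chr6:87350916-87351065 on the minus strand, Gkn2 at chr6:87373215-87373364 on the plus strand, Cblif at chr19:11747409-11747558 on the plus strand, Chia1 at chr3:106113232-106113381 on the plus strand, Atp4a at chr7:30712059-30712208 on the plus strand and Krt5 at chr15:101712906-101713055 on the minus strand.
Gkn1: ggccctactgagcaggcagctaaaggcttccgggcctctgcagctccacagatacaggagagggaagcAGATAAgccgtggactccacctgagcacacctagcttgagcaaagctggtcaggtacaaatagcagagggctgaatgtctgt
Gkn2: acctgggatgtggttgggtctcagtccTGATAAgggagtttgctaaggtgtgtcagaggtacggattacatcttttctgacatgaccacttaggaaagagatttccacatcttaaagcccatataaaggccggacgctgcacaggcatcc
Cblif: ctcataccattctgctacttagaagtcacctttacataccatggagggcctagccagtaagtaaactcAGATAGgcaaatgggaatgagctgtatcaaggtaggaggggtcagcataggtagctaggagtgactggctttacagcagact
Chia1: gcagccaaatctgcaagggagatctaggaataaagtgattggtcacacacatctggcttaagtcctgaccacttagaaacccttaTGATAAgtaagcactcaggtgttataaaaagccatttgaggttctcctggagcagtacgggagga
Atp4a: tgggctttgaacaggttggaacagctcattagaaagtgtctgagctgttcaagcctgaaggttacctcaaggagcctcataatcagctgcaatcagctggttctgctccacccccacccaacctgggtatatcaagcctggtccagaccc
Krt5: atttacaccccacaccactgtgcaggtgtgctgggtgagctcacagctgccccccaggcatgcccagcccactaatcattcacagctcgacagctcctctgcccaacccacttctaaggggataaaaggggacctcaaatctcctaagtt

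The motif began 82 bases before the start in Gkn1 and Cblif, 123 in Gkn2 and 65 in Chia1, and it was not in the windows of Atp4a and Krt5. Of all 32851 starts in the table, 16.0% held it in a window of this length. By gene it was found in 12 of the 24 genes of the rule and of the parietal, chief and mucous lists that the table holds (50.0%), in 10 of 36 squamous genes (27.8%) and in 18.4% of all 27025 genes. Among genes at least 2-fold higher without overlap in the high arrays, 17.2% of 506 held it, beside 12.0% of the 11124 genes that passed the filter on dim probes. A FOXA motif, searched as TGTTTAC on both strands, was in 1.8% of all starts and in 1 of the same 24 genes. These are matches of letters and not measured binding.

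Over the whole array, the difference between the sets was one-sided. The filter kept the 27489 probes for which 3 or more of the 19 forestomach arrays had a Cy5 signal well above background, by the scanner's own flag. Of these, 880 (3.2%) were at least 2-fold higher in the high arrays with no overlap between the sets, and 30 (0.109%) were at least 2-fold lower with no overlap. The rule used this contrast, so these shares serve as the background for the counts of the gene lists and not as a result. In genes with a symbol, 1 probe each, 648 were higher and 21 lower of 14062. Of the 880 higher probes, 314 were well above background on no low array and could pass the filter only through arrays with glandular signal. The median difference over all probes that passed was 0.05 on the log2 scale. Centring each array on its median instead of loess moved it to 0.91 and gave 455 higher probes, of which 388 were among the 880, and 0 lower probes, so the lower group depended on the normalization.

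The arrays also differed in brightness. The share of spots with a Cy5 signal well above background was 25.5%, 48.7% and 51.7% (lowest, median and highest) on the high arrays and 18.9%, 27.8% and 40.4% on the low arrays, while that of Cy3 was 53.1% to 58.8% and 54.6% to 59.2%. Brightness followed the slide. Slide 3, the brightest, held 4 high and 1 low array, slide 2 held 2 and 2, and slide 1 held 0 and 3. Values with the slide as a block or within slide 2 are therefore given beside many of the lists, and the part of brightness in the differences was not tested.

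**Figure D2:**
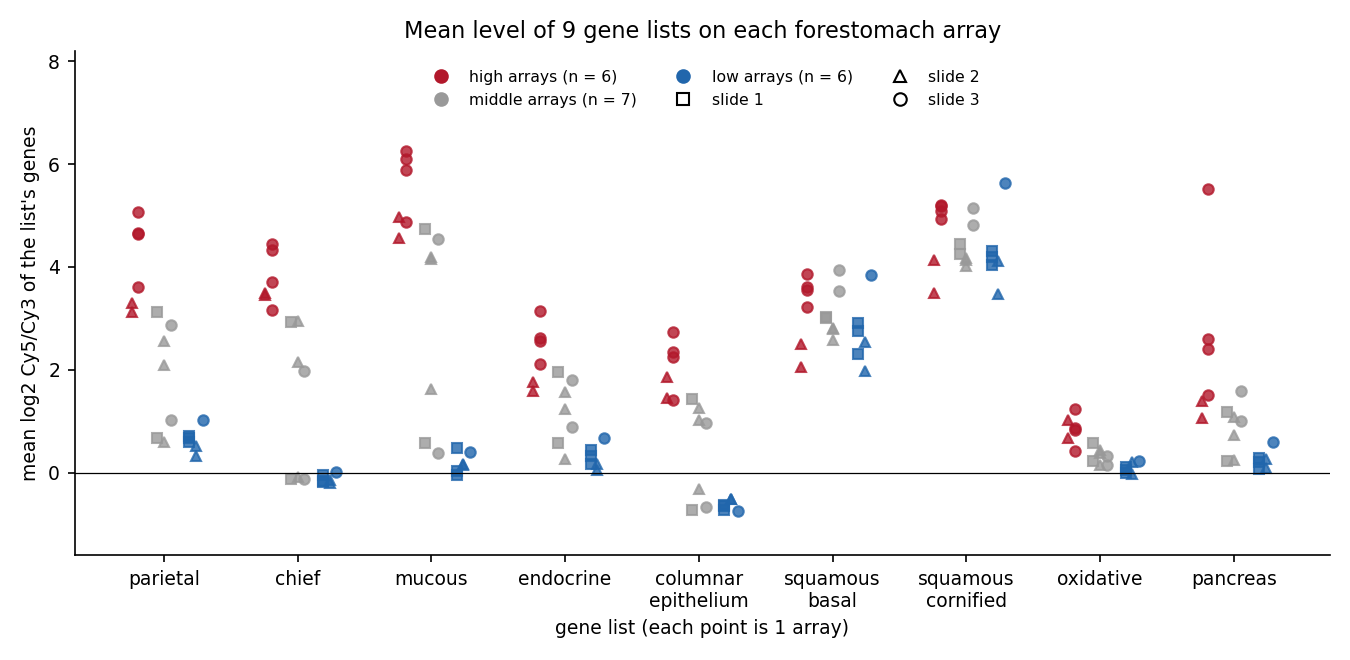
Mean log2 Cy5/Cy3 of the measured genes of 9 lists on each of the 19 forestomach arrays, with the sets in colour and the slide as the symbol. The high and low arrays do not overlap for the parietal, chief, mucous, endocrine, columnar, oxidative and pancreas lists, and they overlap for both squamous lists.

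Genes of acid secretion stood high. In the lists of gastric cells many genes were well above background on no low array, could pass the filter only through other arrays, and have medians set largely against background. This was so for 8 of 12 parietal, 3 of 4 chief, 10 of 16 mucous, 5 of 10 endocrine and 8 of 16 columnar genes. Of 12 measured parietal genes, 9 were past the limits (at least 2-fold higher, no overlap), with a median difference of 3.23 over the list, or 2.64 with the slide as a block and 2.56 within slide 2. Atp4a, the catalytic subunit of the gastric proton pump, had ratios of 5.70, 7.03 and 7.37 in the high arrays and -0.01, 0.12 and 0.30 in the low arrays. It was well above background on no low array. For such genes the normalized Cy5 signal of the high arrays was set against the detection limit of the low ones, which gives an "at least" fold, and dye bias in it was not tested, because no dyes were swapped. Where that fold lay above the fold of the log2 ratios, as for Atp4a, it was not used as a bound and the ratios alone are given. The potassium channel subunits that return potassium to the pump had the same pattern. Kcnq1 was at least 24.4-fold higher and its partner Kcne2 at least 32.5-fold higher, each well above background on 6 of 6 high and 0 of 6 low arrays. Clic6, an intracellular chloride channel protein, had ratios of 5.09 ± 0.44 against 0.10 ± 0.14 (SD, n = 6 each) and was well above background on no low array. The nuclear receptor Esrrg was at least 7.9-fold higher. The 3 parietal genes that were not past the limits were Slc26a7, Slc26a9 and Car2, whose sets overlapped. Slc26a9, a chloride transporter, had 2.96, 4.91 and 6.23 against 0.76, 1.92 and 3.94 and was well above background on all 19 arrays. Car2, a carbonic anhydrase found in many epithelia, had 6.16 ± 0.73 against 5.35 ± 1.14.

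Chief cell genes followed. Chia1, the acidic chitinase of gastric juice, had ratios of 8.00, 9.16 and 9.95 in the high arrays and 0.01, 0.29 and 1.80 in the low arrays, and the only low array on which it was well above background was D1 mouse 6 with 1.80. The difference of the means, 8.65 on the log2 scale, is therefore set mostly against background. Pga5, a pepsinogen A, was at least 20.6-fold higher. Bhlha15, a transcription factor of chief cells and other secretory cells, was at least 4.91-fold higher, at 1.61 ± 1.04 against -0.80 ± 0.52. Lipf, the gastric lipase, was the exception among the 4 measured genes, with -0.06 ± 0.11 against -0.11 ± 0.13 and no array well above background. The list had a median difference of 3.40, and 3.43 with the slide as a block.

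The mucous list had the largest share of genes past the limits among the lists of gastric cells. Of its 16 measured genes, 15 were past the limits and the median difference was 5.49, or 5.24 with the slide as a block. The ratios of Anxa10, an annexin, were 8.98, 9.88 and 10.56 in the high arrays and 0.02, 0.09 and 0.27 in the low arrays, and the bound was at least 490-fold. Muc5ac, the gel-forming mucin of the stomach surface, had 5.81, 6.54 and 7.12 against -0.10, 0.42 and 1.10, and was well above background on 2 of the low arrays. Vsig1, a junction protein of gastric epithelium, was at least 63.9-fold higher. Agr2, a disulfide isomerase of mucus-producing cells, had 7.41 ± 0.82 against 0.07 ± 0.17, Tff2, the trefoil peptide of mucous neck cells, had 5.82 ± 0.57 against 0.06 ± 0.11, and Mucl3 had 7.16 ± 0.60 against 0.09 ± 0.15. These 3 genes were well above background on no low array. Tff1, the trefoil peptide of pit cells, was well above background on every low array, at 3.15 ± 1.10 against 6.54 ± 0.62, and its sets did not overlap. Capn9 was the gene of this list that was not past the limits, with 3.78 ± 0.36 against 1.39 ± 1.96 and overlapping sets, and its difference of 2.40 was 1.38 with the slide as a block. A low level of some pit cell products, Tff1 and Gkn2, was thus measured in arrays that lacked a measured level of the pump, with the exception of Gkn2 in D1 mouse 7.

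Hormone genes were more mixed. Of 10 measured endocrine genes, 4 were past the limits, and the median difference was 1.60, or 1.44 with the slide as a block and 1.08 within slide 2. Sst, the somatostatin of D cells, had ratios of 3.68, 4.42 and 5.30 against -0.11, -0.01 and 0.07, with no low array well above background. Ghrl, the ghrelin precursor, was at 3.50 ± 0.20 against 0.13 ± 0.30, and Hdc, the histamine-forming enzyme of enterochromaffin-like cells, was at least 3.78-fold higher. Chgb, a granin of secretory granules, had 4.26 ± 1.17 against 0.52 ± 0.42. Chga, a related granin, had 3.68, 5.58 and 6.08 against 0.42, 1.86 and 4.38, with overlap. Gast, the gastrin of the antrum, did not pass the filter and was well above background on 1 high and 0 low arrays.

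Genes of simple epithelium showed the same split. Of 16 measured columnar genes, 12 were past the limits, with a median difference of 2.54, or 2.41 with the slide as a block and 1.99 within slide 2. Krt18, a keratin of simple epithelia, had ratios of -0.30, 1.01 and 2.00 in the high arrays and -4.43, -3.92 and -3.37 in the low arrays, and was well above background on all 12. This is a 32.4-fold difference between values measured on each side. Its partner Krt8 had 1.98 ± 0.76 against -2.93 ± 0.50, and Krt19 had 4.15 ± 0.77 against -1.43 ± 0.31. Among transcription factors of foregut endoderm, Foxa2 was at least 13.6-fold higher, Gata4 had 2.14 ± 0.61 against -0.14 ± 0.26 and Gata6 had 1.07 ± 0.71 against -1.28 ± 0.47. Epcam and Cldn3 overlapped, and Nkx6-3 and Hnf4g did not pass the filter.

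The squamous lists overlapped between the sets. Of 18 measured basal genes, 2 were past the limits in the higher and 1 in the lower direction, and of 42 measured cornified genes 2 and 0. The median difference was 0.34 for the basal and 0.22 for the cornified list, beside 0.05 over all probes. With the slide as a block these medians turned to -0.22 and -0.46, and within slide 2 they were 0.05 and -0.08. Within slide 3 they were -0.34 and -0.92, with D1 mouse 6 as the 1 low array. With median centring they were 1.53 and 1.69, where the median of all probes was 0.91. The mean level of both squamous lists together was 4.21 ± 0.70 in the high and 3.82 ± 0.69 in the low arrays (SD, n = 6 each), and the highest and the lowest of the 12 values, 5.10 and 3.03, both lay in low arrays. Leaving out 1 array moved the basal median between 0.18 and 0.57 and the cornified one between 0.01 (without D0 mouse 4) and 0.50 (without D1 mouse 6). The direction of the small squamous differences thus changed with the slide, and their size with the normalization.

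Krt5, the basal keratin, had ratios of 3.16, 3.87 and 4.41 in the high arrays and 2.56, 2.99 and 4.76 in the low arrays. Krt1, Lor and Krt4, of the upper layers, were 8.33 ± 0.72 against 8.05 ± 0.88, 7.75 ± 0.59 against 7.35 ± 1.18 and 6.65 ± 1.25 against 6.64 ± 1.45. Among the basal genes, Krt17 (4.02 ± 1.06 against 2.07 ± 1.48) and the desmosomal cadherin Dsg3 (3.01 ± 1.41 against 1.79 ± 1.25) overlapped. With the slide as a block the difference of Krt17 went from 1.95 to 0.42, that of Dsg3 from 1.22 to 0.48 and that of Krt5 from 0.55 to -0.22. In the cornified list, the stress keratins Krt6a (2.92 ± 1.05 against 0.50 ± 0.83) and Krt16 (3.47 ± 0.88 against 1.56 ± 0.87) overlapped too, and their differences of 2.42 and 1.91 were 1.57 and 1.03 with the slide as a block. Those of Krt1, Lor and Krt4 turned to -0.56, -0.61 and -0.78.

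The listed genes past the limits in the higher direction included some that simple epithelia also express. Mal, an apical membrane proteolipid, had ratios of 4.34, 5.35 and 6.39 in the high arrays and -0.39, -0.34 and 0.15 in the low arrays, of which 4 were well above background. Dsc2, the most widespread desmocollin, had 4.03 ± 1.23 against 0.63 ± 0.50. The integrin subunits Itgb4 (3.30 ± 0.46 against 1.94 ± 0.63) and Itga6 (0.67 ± 0.27 against -0.41 ± 0.49), which anchor epithelia to the basement membrane, were the 2 basal genes. Perp, a membrane protein of desmosomes, was the squamous gene past the limit in the lower direction, with 4.80, 5.58 and 6.11 against 6.49, 6.75 and 7.11. This 2.34-fold difference turned to 0.30 higher on the log2 scale with median centring. Perp stayed below the median of all probes, which was then 0.91.

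**Figure D3:**
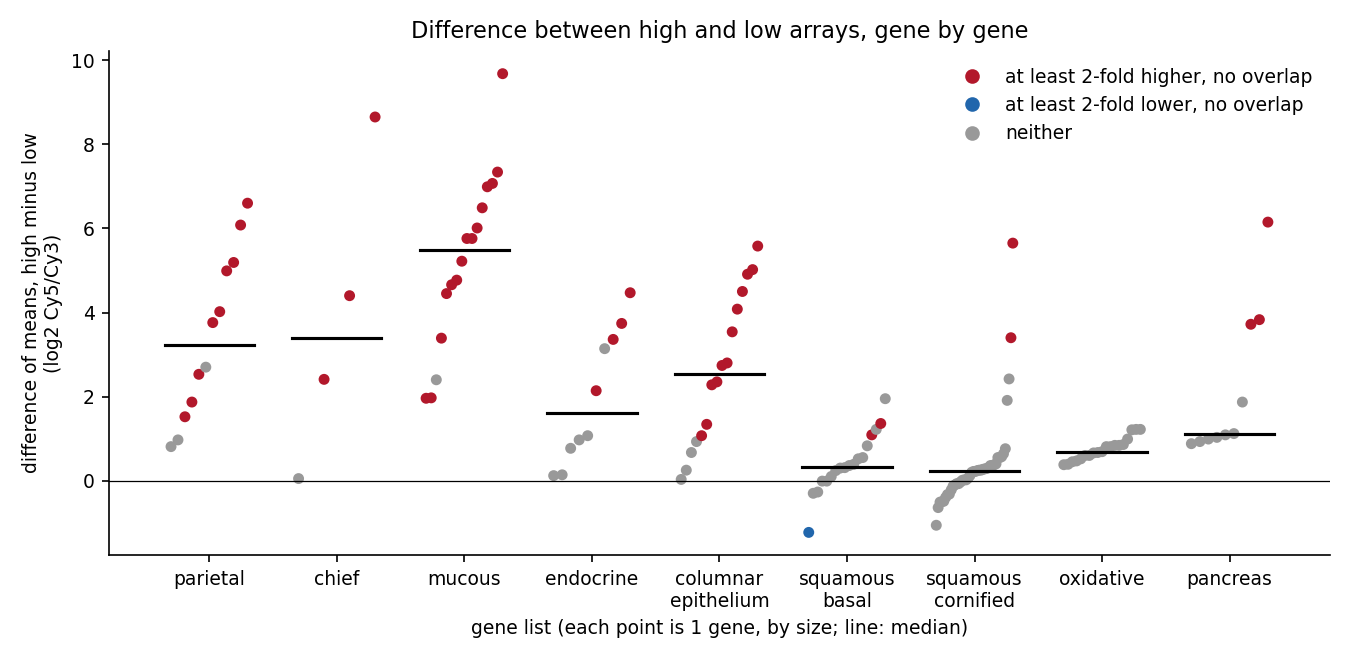
Difference of the means of 6 high and 6 low arrays (log2 Cy5/Cy3, high minus low) for each measured gene of 9 lists, sorted within each list, with the median of the list as a black line. Red genes were at least 2-fold higher and blue ones at least 2-fold lower without overlap. The median is 5.49 for mucous and 0.22 for cornified genes. The blue gene, Perp, turned to 0.30 with median centring, where the median of all probes was 0.91.

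**Figure D4:**
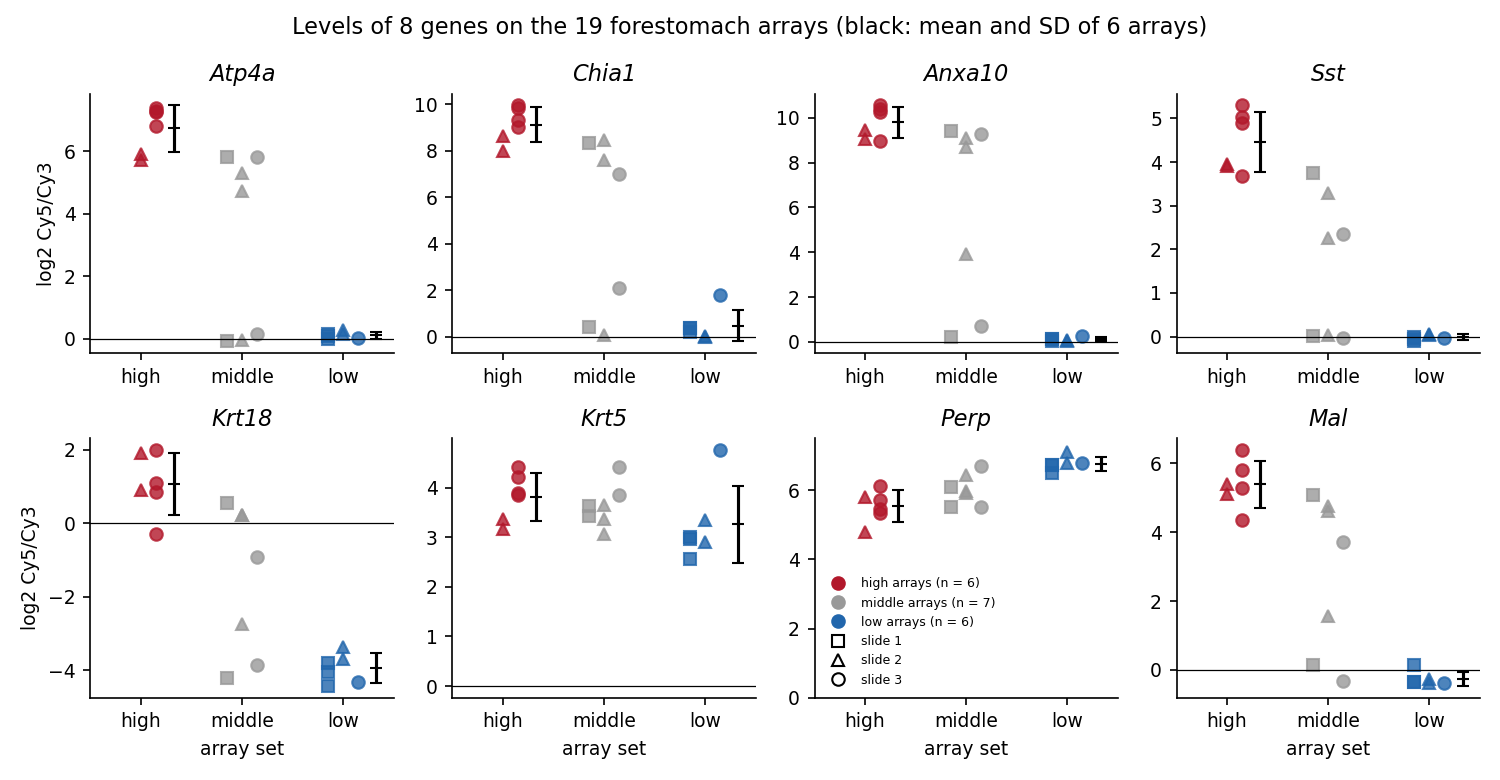
Log2 Cy5/Cy3 of 8 genes on each of the 19 forestomach arrays by set, with the slide as the symbol and the mean and SD of 6 arrays in black for the high and the low arrays. Each panel has its own scale. Atp4a, Chia1, Anxa10, Sst, Krt18 and Mal were higher without overlap and Krt5 overlapped. Perp was lower without overlap by loess, its difference turning to 0.30 with median centring, where the median of all probes was 0.91.

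Of the 10 genes with the largest difference of log2 ratios, 8 were in the rule or in the lists and 2 were not. Their order is not exact, because 8 of the 10 were well above background on no low array and the others on 1. The 2 outside the lists were Tspan1, a tetraspanin, at 7.83 ± 0.61 against 0.01 ± 0.14 (at least 177-fold), and Pdia2, a disulfide isomerase, at 7.05 ± 0.45 against -0.06 ± 0.22. The largest differences in the lower direction were much smaller. Tmem45a had 0.43, 2.04 and 2.94 in the high arrays against 3.19, 3.87 and 4.10 in the low arrays, a 3.53-fold difference that kept its direction under every setting tried. Mgst1, a microsomal glutathione transferase, was 2.5-fold lower, Bnc2, a zinc finger protein, 2.35-fold lower, and Xlr3b, Dkkl1, BC048507, Xlr4b and Olfr18 2.27- to 2.55-fold lower. All 7 of these, like Perp, changed sign with median centring, to between 0.12 (Bnc2) and 0.53 (Olfr18). That centring moved the median of all probes to 0.91, so these genes still lay below it.

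The oxidative list, set up because parietal cells are rich in mitochondria, differed in 1 direction. All 19 measured genes were higher on average in the high arrays, by 0.38 to 1.22 on the log2 scale, and the median difference was 0.69, or 0.67 with the slide as a block and 2.10 with median centring, where the median of all probes was 0.91. None was past the limits: the 4 genes with the largest differences, Cox5a (1.67 ± 0.61 against 0.44 ± 0.33), Cox6a1 (1.71 ± 0.57 against 0.48 ± 0.43), Cycs (0.73 ± 0.49 against -0.48 ± 0.48) and Ppargc1a (1.11 ± 0.34 against 0.13 ± 0.15), either overlapped or stayed under 2-fold. The means of the list did not overlap, at 0.42 to 1.25 in the high and -0.03 to 0.24 in the low arrays.

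Genes of chemical metabolism, some of which hydrocarbons induce, mostly overlapped. Of 16 measured genes, 1 was past the limits, Gsto1, an omega glutathione transferase, at 4.43 ± 0.61 against 2.38 ± 0.42. The median difference was 0.14, or -0.01 to 0.32 when 1 array was left out. Within slide 2 it was 0.30 and within slide 3 -0.08. With median centring it was 1.38, where the median of all probes was 0.91. Nqo1, a quinone reductase, had 2.48, 3.37 and 3.92 against 1.31, 1.99 and 2.52, with overlap. Cyp1a1, the hydrocarbon-inducible cytochrome P450, had 0.69 ± 1.48 against 1.08 ± 1.88 and was well above background on 1 array of each set, D1 mouse 8 with 3.71 and D3 mouse 16 with 4.90. The difference was -0.99 without the former and 0.38 without the latter. Aldh3a1 and Cyp2s1 had 3.55 ± 0.51 against 2.80 ± 0.54 and 5.17 ± 0.27 against 4.45 ± 0.88, and the difference of Cyp2s1, 0.72, was 0.39 without D0 mouse 4.

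Pancreatic enzymes were measured in the high arrays as well. Of 10 measured genes, 7 were well above background on no low array, 3 were past the limits and the median difference was 1.10, but 0.12 within slide 2 and 0.52 without D3 mouse 19. Clps, the colipase precursor, had ratios of 6.56, 8.22 and 8.54 in the high arrays and 0.35, 1.42 and 4.83 in the low arrays. Prss2, a trypsinogen, was at least 8.28-fold higher and Pnliprp1, a lipase-related protein, at least 8.41-fold higher. Cpa1, the acinar enzyme carboxypeptidase A1, overlapped. It had 5.55 in D3 mouse 19 and at most 0.98 in the other high arrays, and was well above background on 2 high and 0 low arrays. The mean level of the list was 5.51 in D3 mouse 19 and 1.07 to 2.61 in the other 5 high arrays. The summed normalized Cy5 signal of the list ran from 186415 to 455333 in the high and from 699 to 2022 in the low arrays. Such a sum follows the brightest genes and not the list as a whole. Averaged over the high arrays, Prss2 and Cpa1 were too dim to make up such sums. Their mean log2 normalized Cy5 signals there were 9.14 and 6.99. The part of the genes of this list in the other differences was not tested.

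Markers of other tissues that a piece of stomach could hold were mostly within the limits. Among intestinal genes, 1 of 8 was past the limits (Apoa4, 1.27 ± 1.00 against -0.03 ± 0.09, above background on 4 high arrays), Fabp2 overlapped, and Sis, Alpi, Muc2, Cdx1 and Cdx2 were well above background on no forestomach array. Their median difference was 0.00 over all 8, and 1.30 over the 3 that passed the filter. In the lists of smooth muscle (12 genes, median 0.46), skeletal muscle (10, -0.04), adipocytes (8, 0.52), fibroblasts (6, -0.16), lymphocytes (10, -0.11), myeloid and mast cells (10, 0.45), mesothelium (4, -0.56), enteric nerve (8, 0.78) and proliferation (10, -0.16), 0 genes were past the limits in either direction. The smooth muscle myosin Myh11 had 0.85 and the neuropeptide Vip 1.89 as their differences, each with overlap. The other largest differences of these lists also belonged to overlapping sets: 0.59 for Mylk, 1.18 for Ckm, -0.71 for Tnnc2, 2.15 for Cidec, 0.70 for Car3, -0.86 for Lum, -0.52 for Dcn, -1.18 for Ms4a1, -1.02 for Cd3g, 1.20 for Cpa3, 0.99 for Tpsb2, -0.84 for Msln, -0.72 for Wt1, 1.31 for Ret, -0.87 for Bub1 and -0.52 for Cdk1. Single arrays weighed on several of them. Leaving out 1 array moved the smooth muscle median between 0.16 and 0.57, the fibroblast median between -0.24 and -0.07 and the proliferation median between -0.20 and -0.09. The difference of Car3 was 0.01 without D0 mouse 2 and 1.21 without D3 mouse 16, that of Myh11 0.38 without D0 mouse 4 and 1.29 without D1 mouse 6, that of Mylk 0.37 without D1 mouse 10, and that of Lum -0.53 without D0 mouse 3. With the slide as a block the adipocyte median turned to -0.57 (and to -0.11 without D0 mouse 2), and those of smooth muscle, myeloid and mast cells and enteric nerve went to 0.18, 0.06 and 0.40. Within slide 2 these 3 were 0.26, 0.12 and 0.11 and mesothelium was -0.29, and with the slide as a block proliferation was -0.08. With median centring, which moved the median of all probes from 0.05 to 0.91, the 5 medians below 0 turned to between 0.12 and 1.30. Of these, lymphocytes (0.12), skeletal muscle (0.52) and mesothelium (0.58) stayed below the median of all probes, while proliferation (1.21) and fibroblasts (1.30) lay above it. The intestinal median turned to -0.12, and smooth muscle went to 1.76.

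**Figure D5:**
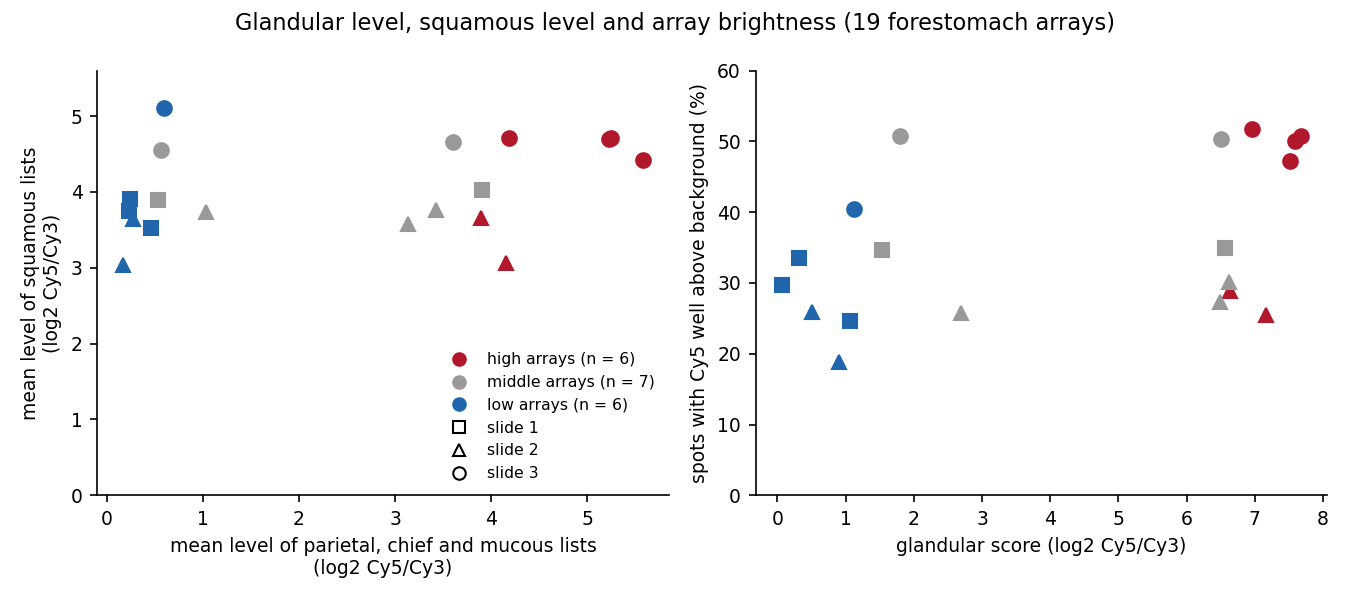
Left, mean level of both squamous lists against that of the parietal, chief and mucous lists (log2 Cy5/Cy3) for the 19 forestomach arrays. Right, percent of spots with a Cy5 signal well above background against the glandular score. Squamous levels overlap between high (3.06 to 4.71) and low arrays (3.03 to 5.10), and both tend to be higher on slide 3.

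The 7 arrays in between were placed by their own levels of the 880 higher probes. The share of these probes that lay nearer the mean of the high arrays was 81.1% in D2 mouse 11, 56.0% in D2 mouse 13, 48.4% in D0 mouse 5 and 36.7% in D2 mouse 15, whose scores were 6.49 to 6.62. It was 4.32% in D3 mouse 18, 17.2% in D3 mouse 20 and 5.34% in D3 mouse 17, below the gap. The 30 lower probes gave another order: the share nearer the high arrays was 3.33% in D0 mouse 5, 80.0% to 83.3% in the 3 D2 arrays, and 36.7%, 80.0% and 13.3% in D3 mice 18, 20 and 17. Mouse 18 was uneven. In the authors' table its Gkn2 ratio was 6.73 and its Atp4b ratio 3.00, while Cblif was at 0.09. By loess its Anxa10 ratio was 3.92, while Atp4a was at -0.02 and Chia1 at 0.07. Arrays above the gap with nearly equal scores differed in how many of the 880 probes, which were picked from the high and low arrays, stood high. They also differed in slide: D2 mouse 11 was on slide 1, D2 mice 13 and 15 on slide 2 and D0 mouse 5 on slide 3. The part of the slide in these shares was not tested.

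Whether dose went with the glandular score was tested on all 19 arrays, since the dose labels did not enter the rule. The score was 4.64 ± 3.37 (SD, n = 5) in D0, 3.06 ± 3.44 (n = 5) in D1, 6.84 ± 0.57 (n = 4) in D2 and 2.77 ± 2.79 (n = 5) in D3. The differences from D0 were within the spread between mice. By a two-sided exact permutation test of the mean, D1 differed by -1.59 (p = 0.31), D2 by 2.19 (p = 0.381) and D3 by -1.87 (p = 0.452), each with a Benjamini-Hochberg adjusted p of 0.452 over the 3 doses. Leaving out 1 mouse gave -2.56 to -0.84 for D1, 1.26 to 2.93 for D2 and -3.06 to -1.14 for D3. The range was wide within a dose: D0 arrays ran from 0.90 to 7.59, D1 arrays from 0.06 to 6.96 and D3 arrays from 0.32 to 7.52, whereas the 4 D2 arrays ran from 6.49 to 7.68.

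The liver and lung of the same mice were tested because the ranking did not use them. The limits were an adjusted p of 0.05 or less by limma and a fold change of at least 1.5 between the 6 mice with high and the 6 with low forestomach arrays. In liver 0 of 23284 probes (0.0%) met them under every setting tried, while 860 probes (3.69%) had an unadjusted p of 0.05 or less and the smallest adjusted p was 1. In lung the count was 0 of 30583 (0.0%), with 2842 probes (9.29%) at an unadjusted p of 0.05 or less and a smallest adjusted p of 0.186. With the slide as a block limma called 1 lung probe, which has no gene symbol (log2 difference 1.12, SE 0.11, adjusted p 0.0239).

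The dose comparison in forestomach was then fitted with the glandular score as a linear term. By limma with the same limits, D1 against D0 gave 0 of 27489 probes (0.0%) and D2 against D0 gave 0 (0.0%), where 1980 (7.2%) and 1556 (5.66%) passed an unadjusted p of 0.05. D3 against D0 gave 148 (0.538%), 117 higher and 31 lower, and 4102 (14.9%) passed an unadjusted p of 0.05. The authors' table in place of loess gave 114, of which 54 were higher and 60 lower, so the split by direction depended on the normalization. Without the score the same fit gave 0, 1 and 0 probes, and 1150, 2046 and 2674 at an unadjusted p of 0.05. The 1 at D2 was a probe for a region without a gene symbol. The median residual SD over probes was 0.280 with dose alone, 0.259 with the score and 0.228 with the mean of the squamous lists in place of the score.

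Among the probes called at D3, the nuclear long non-coding RNA Neat1 was higher by 1.56 (SE 0.29, adjusted p 0.0314 by limma), with ratios of -1.78, -0.80 and -0.35 (lowest, median and highest of 5) in D0 and -0.86, 0.30 and 1.20 in D3. All 5 D3 arrays lay above the D0 mean, and the groups overlapped. Ccdc9b, Plekhh3 and Mat2a, the last the enzyme that makes S-adenosylmethionine, were higher by 1.45, 1.23 and 1.21 (limma adjusted p 0.0465, 0.0265 and 0.0233), with 5 of 5 D3 arrays above the D0 mean for each. In the lower direction, Acp1, Rabac1, Sdf2 and 2810025M15Rik differed by -0.79, -0.79, -0.74 and -0.73 (limma adjusted p 0.0388, 0.0233, 0.0337 and 0.0255), with 5 of 5 D3 arrays below the D0 mean for each. The D0 and D3 arrays overlapped for Mat2a, Acp1, Sdf2 and 2810025M15Rik, and did not for Ccdc9b, Plekhh3 and Rabac1. The count of 148 rested on single mice and settings. It was 0 without D0 mouse 1, D0 mouse 4 or D3 mouse 18, 2 without D3 mouse 17, 3 without D3 mouse 20 and 626 without D3 mouse 19, and it was 2 (Ltv1 and Trub2) with the squamous level in place of the score and 0 with median centring.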

How the data were processed

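Members and gene lists were chosen with earlier results of these data known. Per the file headers, the deposited scanner files hold median spot and background intensity of both channels (Feature Extraction 10.7.3.1), and flags of 0 or 1 stored as other values. The authors also deposited a table of log2 ratios of Cy5 over Cy3, made by LOWESS within arrays without background subtraction, per the study's methods. Its values gave the score and the ratios in the paragraph on the rule genes, from the probe of each gene that was brightest in Cy5 over the forestomach arrays.

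Other log2 ratios, unless stated, were normalized here by limma 3.58.1, run in R 4.3.3, with loess inside each array. The 3671 control spots were left out and replicate spots averaged to 55681 probes. The normalized Cy5 signals behind the "at least" folds and the sums were made from the loess values. Mean intensities of both channels were first quantile normalized across the arrays of a tissue. The detection limit of an array was the lowest such signal among its spots well above background. Symbols came through RefSeq accessions (GRCm38.p6), which named 26413 probes (47.4%). Ensembl-based probes were not named. Of the listed genes, Hrh2, Muc6, Flg, Sprr2a1 and Cd68 had no named probe. The number of arrays limits the precision.

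Named genes were the rule genes, the 4 largest differences of each main list and 2 of each list of another tissue, the 10 largest differences each way over all genes (1 of the lower ones is not reported here), Cyp1a1, Nqo1 and Krt5, and up to 4 called genes each way. Genes named beyond these, such as Tff2, Muc5ac, Itga6 and Cpa1, were chosen after their values were seen. Tests were two-sided, by limma (lmFit and eBayes, Benjamini-Hochberg over all probes tested) or by exact permutation of dose labels. The study's methods name MAANOVA, for which limma stood in. limma was also tested on simulated data, of which no outcome is given here. The litters and cages of the mice are not stated, and the p-values treat the mice as independent. They measure the spread between these mice together with any difference between slides, except where the slide was a block. The alternatives were median centring, normexp background correction, the authors' table, a stricter filter, blocks for slide and dose, other rankings and leaving out each mouse. The slides taken alone were added after seeing the data.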

Additional observations from a re-analysis of the deposited data

Results flagged for a closer look

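Within each dose and within each set of high or low arrays, 46 sets of values were searched for an array far from the others (Dixon's test at 95%), and 3 were found, where chance gives about 1 in 20 sets, or 2.3. The glandular score of D2 mouse 12, 7.68, stood above the other 3 D2 arrays, which had 6.49 to 6.62. The pancreas list had a mean level of 5.51 in D3 mouse 19, above the other 5 high arrays. The intestine list had 0.14 in D1 mouse 6, above the other low arrays, but 7 of its 8 genes were well above background on no low array. D1 mouse 6, the 1 low array on slide 3, also had the highest Chia1 ratio of the low arrays. Its squamous level, 5.10, was the highest of all 19 arrays.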

How the results depend on the processing

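The 880 higher and 30 lower probes in the high arrays became 455 and 0 with median centring. The 30 lower probes became 74 with the authors' table and 48 with the slide as a block. The 880 of 27489 probes became 250 of the 9423 that were well above background on every array. This filter drops the 314 of the 880 that were well above background on no low array. A 1.5-fold limit gave 1328 and 202. Slide 3 alone (4 high against 1 low array) gave 1356 and 421, and slide 2 alone (2 against 2 arrays) gave 974 and 229. With so few arrays the sets fail to overlap more easily, so these counts cannot be set against 880 and 30. Leaving out 1 array gave 787 to 1022 higher and 21 to 55 lower, the latter without D0 mouse 2. Median centring turned the sign of Perp (0.30), Xlr3b (0.23), Mgst1 (0.26), Dkkl1 (0.31), BC048507 (0.27), Xlr4b (0.32), Bnc2 (0.12) and Olfr18 (0.53). It also moved the median of all probes to 0.91, and these genes stayed below that. Ranking by the parietal, chief and mucous lists kept 5 high and 5 low arrays. The lung count of 0 became 1 with the slide as a block. The count of 148 of 27489 probes at D3 became 0 without the score, 2 with the squamous level, 384 with the slide as a block and 0 with median centring. It was 424 of 9423 probes with the stricter filter, and 0 to 626 when 1 mouse was left out. The count of 0 at D2 became 1 without the score, 1 with the squamous level, and 0 to 1 when 1 mouse was left out. The cause of these changes was not tested. No paired analysis was possible because the high and low arrays came from different mice and each mouse had 1 array per tissue. Dim signal on slides 1 and 2 limits what low values can show.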
